A study of Mus musculus with 2 samples.

Results

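The major histocompatibility complex and its antigen presentation machinery were examined through 10 genes in DNase-seq of mouse urinary bladder, taken by their GENCODE M21 symbols on mm10 out of 21938 protein-coding genes. The class I genes were H2-K1, H2-D1, B2m, Tap1 and Nlrc5, and the class II genes were H2-Aa, H2-Ab1, H2-Eb1, Cd74 and Ciita. Each gene was followed over its body and 10 kb on either side, with every annotated transcript start kept apart. These domains held 61 of the 117773 peaks of replicate 1 and 54 of the 102671 peaks of replicate 2. The libraries came from whole bladders of 2 female B6CASTF1/J mice aged 36 days, 1 library per animal. This strain is the first-generation hybrid of a C57BL/6 and a CAST parent. No treatment, genotype difference or second tissue was part of the series, so the classes were compared with each other and with all genes, and no p-value could be computed.

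DNase-seq marks DNA that an added nuclease can cut, which in chromatin is mostly DNA free of nucleosomes. A peak is a stretch with many cuts, and a footprint is a short stretch inside it with few cuts, as left by a bound protein. Class I molecules consist of a heavy chain (H2-K1, H2-D1) and the light chain B2m, and they show peptides from inside the cell on nearly all nucleated cells. Class II molecules pair alpha and beta chains (H2-Aa, H2-Ab1) and show peptides from outside, mainly on dendritic cells, macrophages and B cells. Both kinds of promoter are known to carry X and Y boxes, which the RFX complex, CREB family factors and NF-Y occupy. The coactivator NLRC5 docks there for class I and CIITA for class II.

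The tissue label was checked against marker genes. A start was called open when a deposited peak came within 250 bp of it in both animals, and a gene was open when any of its starts was. All 7 urothelial markers were open, as were 4 of 5 markers each for smooth muscle, fibroblasts and endothelium. Of all protein-coding genes 63.6% were open by this rule, and 4 of 5 in so short a list is near that share. Actg2 of the smooth muscle list and Lum of the fibroblast list had no start peak in either animal. Pecam1 of the endothelial list had a start peak in replicate 1 alone, at 0.608. Of 13 leukocyte markers, 2 were open. Ptprc, the pan-leukocyte gene for CD45, had no start peak in either animal. The open leukocyte markers were Adgre1 (height 0.561 in replicate 1 and 0.459 in replicate 2) and Zbtb46 (3.98 and 3.04). Heights are the authors' peak signal, whose scaling is not given in the sources used here. They were higher in replicate 1 at most genes, with a median log2 ratio of replicate 1 over replicate 2 of 0.54 over the 13956 open genes. The urothelial markers had a median ratio of 1.06, and the 9 open members one of 0.46 with a range of 0.13 to 0.71. Of these 9 members, 7 lay between the quartiles of all open genes, 0.27 and 0.77. Whether the makeup of the tissue pieces had a part in the members' heights was not tested.

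All 5 class I genes and 4 of the 5 class II genes had an open start, against 63.6% of all protein-coding genes. The gene without one was Ciita. With starts counted apart, 21 of 35 class I starts and 16 of 26 class II starts were open, against 48.9% of all annotated starts. Starts are not separate observations, since clustered ones shared a peak, as did those of H2-K1 from position 34000208 to 34000347. A count of 5 genes a class is small, and the gene shares separate the classes by Ciita alone. The start shares were close to each other and did not separate the classes. In class II the starts that were not open were 8 of Ciita and 2 of H2-Ab1. In class I they were 5 of H2-K1, 5 of Nlrc5, 2 of H2-D1 and 2 of Tap1. Outside Ciita, class II thus had the larger share of open starts. The classes differed more in how high the peaks were. The median start height, the highest peak within 250 bp of any start, was 8.48 in replicate 1 and 5.22 in replicate 2 over the 5 class I genes. Over the 4 open class II genes it was 3.64 and 2.63. All open genes had medians of 5.10 and 3.64, between those of the classes in both animals. The medians of the open urothelial markers, 3.12 and 1.48, were below those of class II, as were those of the other marker lists. On the log2 scale, class I exceeded class II by 1.22 in replicate 1 and by 0.99 in replicate 2 (1.10 ± 0.16, SD, n = 2), and the sign was the same in both. With coding transcripts as the only starts, the difference was 1.70 and 1.16. In each animal 4 of the 5 class I genes stood above every class II gene, and Nlrc5 stood below H2-Aa, H2-Ab1 and H2-Eb1. For H2-Ab1 this rested on the start of a noncoding transcript. Its coding start at position 34263209 reached 1.52 and 1.82, below the Nlrc5 coding start with 2.78 and 2.02. In a tissue of mixed cells, fewer cells with an open start and a less open start in each cell cannot be told apart.

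**Figure D1:**
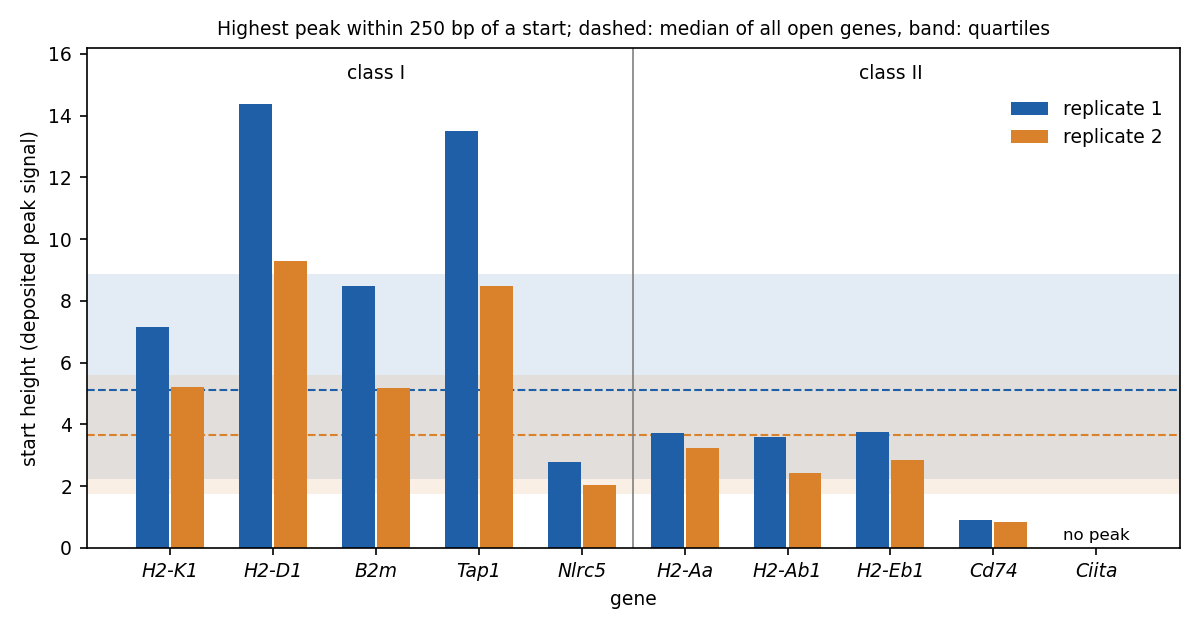
Start height (deposited peak signal, linear axis from 0) of the 5 class I genes on the left and the 5 class II genes on the right, as 1 bar per animal. Dashed lines and bands give the median and quartiles of all open protein-coding genes in each animal. H2-D1 and Tap1 stand highest, Cd74 lowest, and Ciita has no peak.

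The promoter sequences show where the footprints fell. RefSeq windows on GRCm38.p6 (mm10), which span 250 bases before to 50 after a gene start, were matched for 6 of the 10 members. They are printed on the gene's strand, with bases inside footprints of both animals in capitals. For H2-K1 (chr17:34000322-34000492, minus strand), B2m (chr2:122147543-122147712, plus), H2-Aa (chr17:34287798-34287974, minus) and H2-Eb1 (chr17:34305692-34305892, plus) the stretch shown starts 12 bases before the first shared footprint and ends 25 bases after the start, which can cut a shared footprint short. The windows of H2-D1 and Tap1 overlap annotated exons, and 30 bases of the widest shared footprint are given (chr17:35262977-35263006 and chr17:34187377-34187406, both plus).

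H2-K1: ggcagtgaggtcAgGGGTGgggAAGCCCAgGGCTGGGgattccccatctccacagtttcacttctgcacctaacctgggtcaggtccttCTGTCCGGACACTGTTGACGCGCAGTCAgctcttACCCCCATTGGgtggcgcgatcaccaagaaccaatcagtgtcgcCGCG

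H2-D1: TCTGCCGGGACACTGATGACGCGCTGGCAG

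B2m: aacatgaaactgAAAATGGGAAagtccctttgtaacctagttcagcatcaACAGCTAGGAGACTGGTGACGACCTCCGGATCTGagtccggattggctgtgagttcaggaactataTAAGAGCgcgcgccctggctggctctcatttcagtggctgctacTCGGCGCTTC

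Tap1: GCCCCGCCCCATCATCGCGCAAGGGGCGTG

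H2-Aa: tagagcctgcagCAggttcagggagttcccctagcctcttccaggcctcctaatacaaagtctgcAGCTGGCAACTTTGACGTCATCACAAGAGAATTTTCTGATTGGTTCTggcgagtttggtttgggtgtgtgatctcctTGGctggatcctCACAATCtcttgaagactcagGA

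H2-Eb1: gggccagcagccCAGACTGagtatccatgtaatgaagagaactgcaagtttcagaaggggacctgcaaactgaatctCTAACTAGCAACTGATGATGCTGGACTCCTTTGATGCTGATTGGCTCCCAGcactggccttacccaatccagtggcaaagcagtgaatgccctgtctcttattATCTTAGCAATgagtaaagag

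The deposited footprints traced a layout found in part of the printed promoters. In H2-K1, H2-D1, B2m and H2-Eb1, a protected run covered the letters ACNNNTGA, which span the junction of the X1 and X2 boxes, and the Y box ATTGG began 29 or 30 bases after the first of these letters. In H2-K1 the X part and the Y box lay in separate footprints of both animals, with 8 of 8 and 5 of 5 bases covered. In H2-D1 and B2m the X part was covered in full in both animals and the Y box was not covered in either. In H2-Eb1 a single footprint of 51 bp in replicate 1 and 52 bp in replicate 2 ran from before the X box to beyond the Y box. The start peaks of Tap1, Nlrc5, H2-Aa and Cd74 held no ACNNNTGA with ATTGG at such a spacing.

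Among the highest start peaks of the members, the widest footprints were those of 3 class II genes. In the highest start peak, the widest footprint measured 47 and 51 bp at H2-Aa, 49 and 44 bp at H2-Ab1, and 51 and 52 bp at H2-Eb1, replicate 1 given before replicate 2. At the class I genes it measured 29 and 30 bp at H2-K1, 37 and 32 bp at H2-D1, 34 bp in both animals at B2m, 40 and 39 bp at Tap1, and 24 and 16 bp at Nlrc5. The ranges of these class I genes and of these 3 class II genes did not overlap in either animal, but this rested on the peak chosen. The highest H2-Ab1 start peak lies at the start of a noncoding transcript. In the peak at its coding start the widest footprint measured 26 and 32 bp, within the class I range of each animal. Cd74, with 17 and 11 bp, fell below all of class I. Over all footprints the median width was 10 bp in replicate 1 and 9 bp in replicate 2, and the 95th percentile was 30 and 28 bp. Only 0.0743% of replicate 1 footprints and 0.0609% of replicate 2 footprints were as wide as the one at H2-Eb1.

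**Figure D2:**
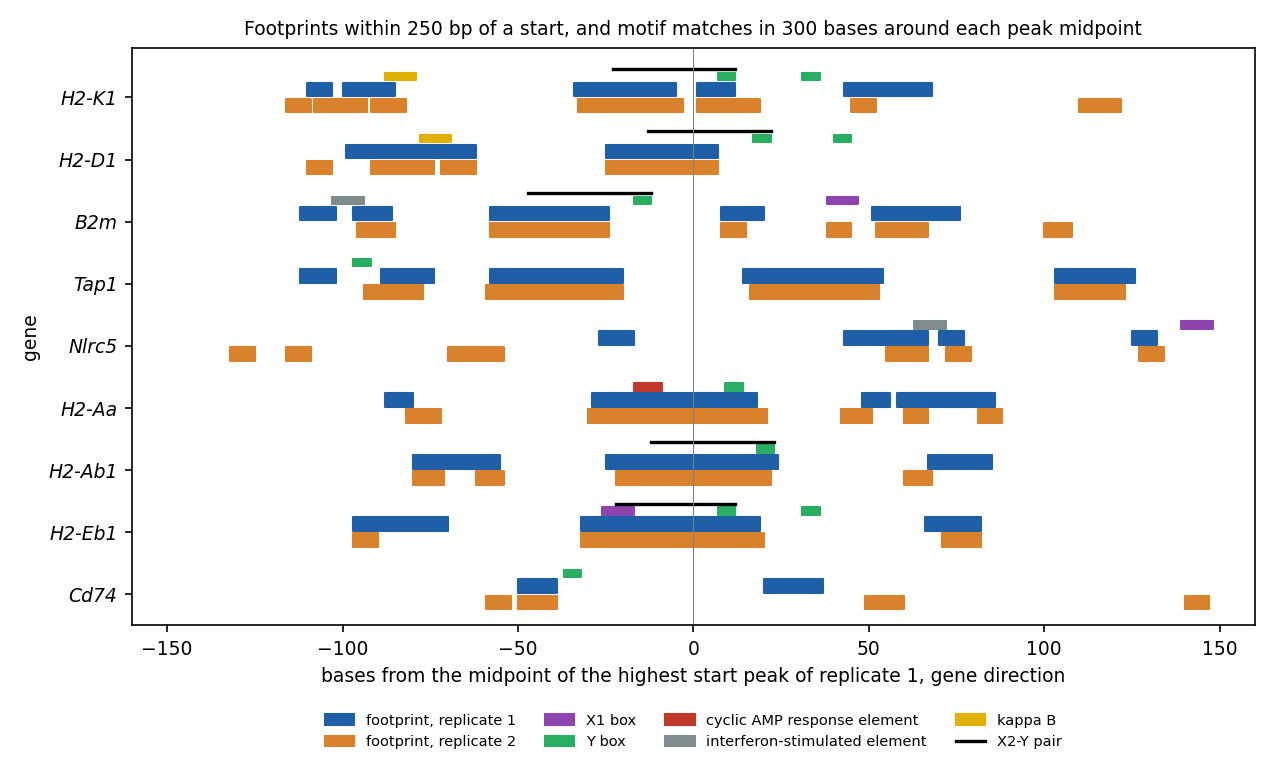
Footprints of replicate 1 (blue) and replicate 2 (orange) within 250 bp of a start of the 9 open members, class I above class II, by distance in bases from the midpoint of the highest start peak of replicate 1. Coloured ticks above them are motif matches and black lines are matches of the X2-Y pair. At H2-Aa, H2-Ab1 and H2-Eb1 a wide footprint spans the centre of the peak in both animals, and at H2-K1 the pair lies under separate footprints.

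Motifs were searched on both strands in the window of every annotated start and in 300 bases around every peak midpoint of replicate 1. The X1 box AGNNACNGA was in 17.1% of 93513 start windows and the Y box in 34.8%. The planned pair, AGNNAC with ATTGG 30 to 42 bases on from its start, was in 2.15% of start windows and 1.99% of peak windows. It was in 4 of the 61 domain peaks (6.56%), among them the start peaks of H2-Ab1 and H2-Eb1. The pair seen in the printed sequences, ACNNNTGA with ATTGG 28 to 32 bases on, was written down after the sequences had been seen and is called the X2-Y pair. It was in 0.194% of start windows and 0.178% of peak windows, and in 10 of the 61 domain peaks (16.4%). Since it was read off the members, and the H2 genes are related in sequence, this share describes them and is no support for the pattern.

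The X part was wholly inside footprints of both animals in 8 of these 10 peaks. They were the start peaks of H2-K1, H2-D1, B2m, H2-Eb1 and H2-Ab1 (2 peaks), a peak 3958 bp upstream of H2-Aa and a peak 906 bp upstream of H2-Eb1. The Y box was covered by at least 4 of its 5 bases in both animals in 3 of the 8. Across the genome, 210 peaks of replicate 1 held the X2-Y pair, and in 9 of them a footprint touched both boxes in both animals. Of these 9, 7 lay at protein-coding starts, and 3 of the 7 were those of H2-K1, H2-Ab1 and H2-Eb1, members of the group whose sequences gave the pair. The other 4 start peaks were those of H2-Q4, a class I heavy chain related to H2-K1, of H2-DMa, a subunit of the chaperone that loads peptide onto class II, of Cdnf with Hspa14 and Gm45902, and of BC051142. No test was made of this tally.

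Matches of the other motifs are given as a description. The kappa B site GGGGATTCC, which NF-kappa B proteins bind and which 0.246% of peak windows held, was in the start peaks of H2-K1 and H2-D1 alone among the domain peaks. Footprints covered 3 and 6 of its 9 bases at H2-K1, and 9 and 7 at H2-D1. H2-Aa had a full cyclic AMP response element, TGACGTCA, the site of CREB family factors, 74 bases before its start, and 1.94% of start windows held one. All 8 of its bases and all 5 of the Y box 48 bases before the start were footprinted in both animals. The element was also footprinted in full in both animals in an intronic peak of Cd74 and in the peak at the Psmb8 start of the Tap1 domain. The interferon-stimulated element GAAANNGAA, a site of interferon regulatory factors found in 8.46% of start windows, was partly covered in both animals 138 bases before the start of B2m and 7 bases before a start of Nlrc5. At Tap1 it lay 103 bases before the innermost of the clustered starts, with 1 and 4 of its 9 bases covered. In all, the 39 class I domain peaks of replicate 1 held 9 such elements, 4 of them touched by footprints in both animals. Some of the 9 lay in peaks at the starts of Psmb8 and Tap2, and the Psmb8 element was among the 4 touched. The 22 class II domain peaks held 3, in the H2-Aa, H2-Ab1 and Ciita domains, and none of these was touched in either animal. Over all peak windows 7.96% held the element, and the difference between the classes was not tested. At the first annotated start, the class I genes also had more CpG than the class II genes. The first annotated starts of H2-K1, B2m, Tap1 and Nlrc5 had 14, 14, 15 and 19 CpG in 300 bases, and that of H2-D1 had 6. Those of H2-Aa, H2-Ab1, H2-Eb1, Cd74 and Ciita had 3, 1, 0, 2 and 2, against a median of 9 over all start windows. The H2-D1 window ended short of its start peak. Starts further inside the genes went both ways, with 0 CpG at an inner H2-K1 start and 8 at an inner H2-Eb1 start.

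The GC box GGGCGG was in 38.5% of start windows and 22.8% of peak windows. The 39 class I domain peaks of replicate 1 held 18 matches and the 22 class II ones 5. Several of the class I matches lay downstream of Nlrc5, in peaks at or beside the start of Cpne2. A GC box lay wholly under footprints of both animals in the peak shared by Tap1 and Psmb9, in a peak downstream of Nlrc5 and in the peak 3958 bp upstream of H2-Aa. The TATA letters TATAAA were in 11.5% and the CTCF core AGNNGGCGC in 7.81%. A CTCF core in the peak at the Tap2 start, within the Tap1 domain, was covered in full in both animals. The letters GGAANNGAA, which ETS and IRF proteins can share, were in 7.83% of start windows and GAGGAAGT, a site of PU.1, in 2.85%. No PU.1 match of a domain peak was footprinted in both animals.

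Start footprints were about as numerous in both animals for class I, with 29 and 30, and less even for class II, with 14 and 22. A footprint lay within 250 bp in both animals at 45.7% of all annotated starts. Of the class I start footprints of replicate 1, 65.5% overlapped one of replicate 2, and of the class II ones 85.7%, against 61.7% over all protein-coding starts. In the other direction the shares were 70.0%, 63.6% and 60.1%, so the higher class II share was seen from replicate 1 alone.

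Among the class I heavy chains, H2-D1 had the highest start of all members. Its peak at chr17:35262901-35263100 reached 14.4 in replicate 1 and 9.28 in replicate 2, at percentiles 94.7 and 97.6 of all open genes. Its remaining 2 starts, inside the gene, had no peak. H2-D1 also had the highest peak of these domains away from any annotated start, at chr17:35258241-35258440, 4389 bp upstream, with 7.82 and 5.14. A peak 8930 bp beyond its last start reached 3.88 and 3.64. H2-K1, on the opposite side of the class II region, reached 7.17 and 5.22 (percentiles 64.9 and 70.5) at chr17:34000261-34000480. In both animals H2-K1 stood below H2-D1, and 11 of its 16 starts were open. The 3 innermost of those 11 lay by low peaks over coding exons, with heights of 0.734 and 0.832.

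H2 genes belong to families of similar copies, and mm10 holds the sequence of the C57BL/6 parent alone. How reads of the CAST parent aligned was not tested. Of the 61 domain peaks of replicate 1, 4 had another place in the genome at 90% identity or more over 80% of their length. These were the low coding-exon peaks of H2-K1 (0.703 and 0.734), a peak of 0.742 upstream of H2-K1 and one of 0.426 in a coding exon of H2-Ab1. The highest start peak of each open member had no such copy.

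B2m, the light chain of class I, has a single annotated start, and its peak at chr2:122147561-122147740 reached 8.48 and 5.18. That is at percentiles 72.6 and 70.1. B2m and H2-K1 changed order between the animals, so these neighbours did not differ beyond the spread. A lower B2m peak in the intron, 1035 bp downstream, reached 1.53 and 1.14. Tap1, a subunit of the pump that brings peptides to class I, had the second highest start with 13.5 and 8.49 (percentiles 93.0 and 95.5). The Tap1 peak is shared with the start of Psmb9, an immunoproteasome subunit read in the other direction, and the signal cannot be divided between them. H2-D1 stood above Tap1 by 0.09 and 0.13 on the log2 scale. The Tap1 domain also took in the starts of Psmb8, at 8.49 and 4.53, and Tap2, at 5.09 and 4.26.

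Nlrc5, the class I coactivator, had the lowest start among the class I genes. Its peak at chr8:94434221-94434440 reached 2.78 and 2.02, at percentiles 29.9 and 28.7, and is shared with the start of 9330175E14Rik. Of its 8 annotated starts 3 were open, all within 250 bp of this peak in both animals. A peak in an intron at chr8:94492501-94492700, 10562 bp from the nearest start, was higher than the start peak in both animals, with 3.11 and 2.51. Nlrc5 and Cd74 were the open members with a peak at no annotated start that stood above the start peak in both animals.

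The class II chains stood close together. H2-Aa, the alpha chain, reached 3.71 and 3.24 at chr17:34287781-34287980, and H2-Eb1, a beta chain, 3.77 and 2.84 at chr17:34305701-34305900. Their order changed between the animals. All 3 starts of H2-Aa and all 5 of H2-Eb1 were open. H2-Ab1, the beta chain that pairs with H2-Aa, reached 3.58 and 2.42 at chr17:34257661-34257840. That peak lies at the start of a noncoding H2-Ab1 transcript, and at the coding start at position 34263209 the height was 1.52 and 1.82. In the H2-Ab1 coding peak the X1 box lay 60 bases before the start, with 8 and 9 of its 9 bases footprinted. The peaks 3958 bp upstream of H2-Aa (2.46 and 1.89) and in an H2-Eb1 intron at chr17:34313541-34313700 (2.06 and 1.72) lay at no annotated start.

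Cd74, the invariant chain that guards the class II groove, had the lowest open start of all members, with 0.900 and 0.824 at chr18:60803581-60803780. That is at percentiles 8.95 and 9.96 of open genes. Cd74 also had 3 intronic peaks in both animals, at 0.671 to 1.05 in replicate 1 and 0.662 to 0.739 in replicate 2. A peak 10226 bp beyond its last start reached 1.05 and 0.841. The start peak had 2 and 4 footprints, of which 1 was shared.

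Ciita, the class II coactivator, is known to start from alternative promoters used in dendritic cells, in B cells and under interferon gamma. None of its 8 annotated starts, which fall into 3 clusters at chr16:10480059, chr16:10488178 and chr16:10489746, had a peak or a footprint within 250 bp in either animal. In replicate 2 bases near the most upstream cluster passed a false discovery rate of 0.0358, and in replicate 1 none did. The third cluster carried an interferon gamma element TTCNNNGAA, an E box CACGTG and an interferon-stimulated element at 127, 116 and 36 bases before its start, all without a footprint. Among all start windows 7.85% held the interferon gamma element and 7.06% the E box. Ciita had 4 peaks elsewhere in both animals, the highest in an intron at chr16:10521301-10521500 with 1.78 and 1.43.

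**Figure D3:**
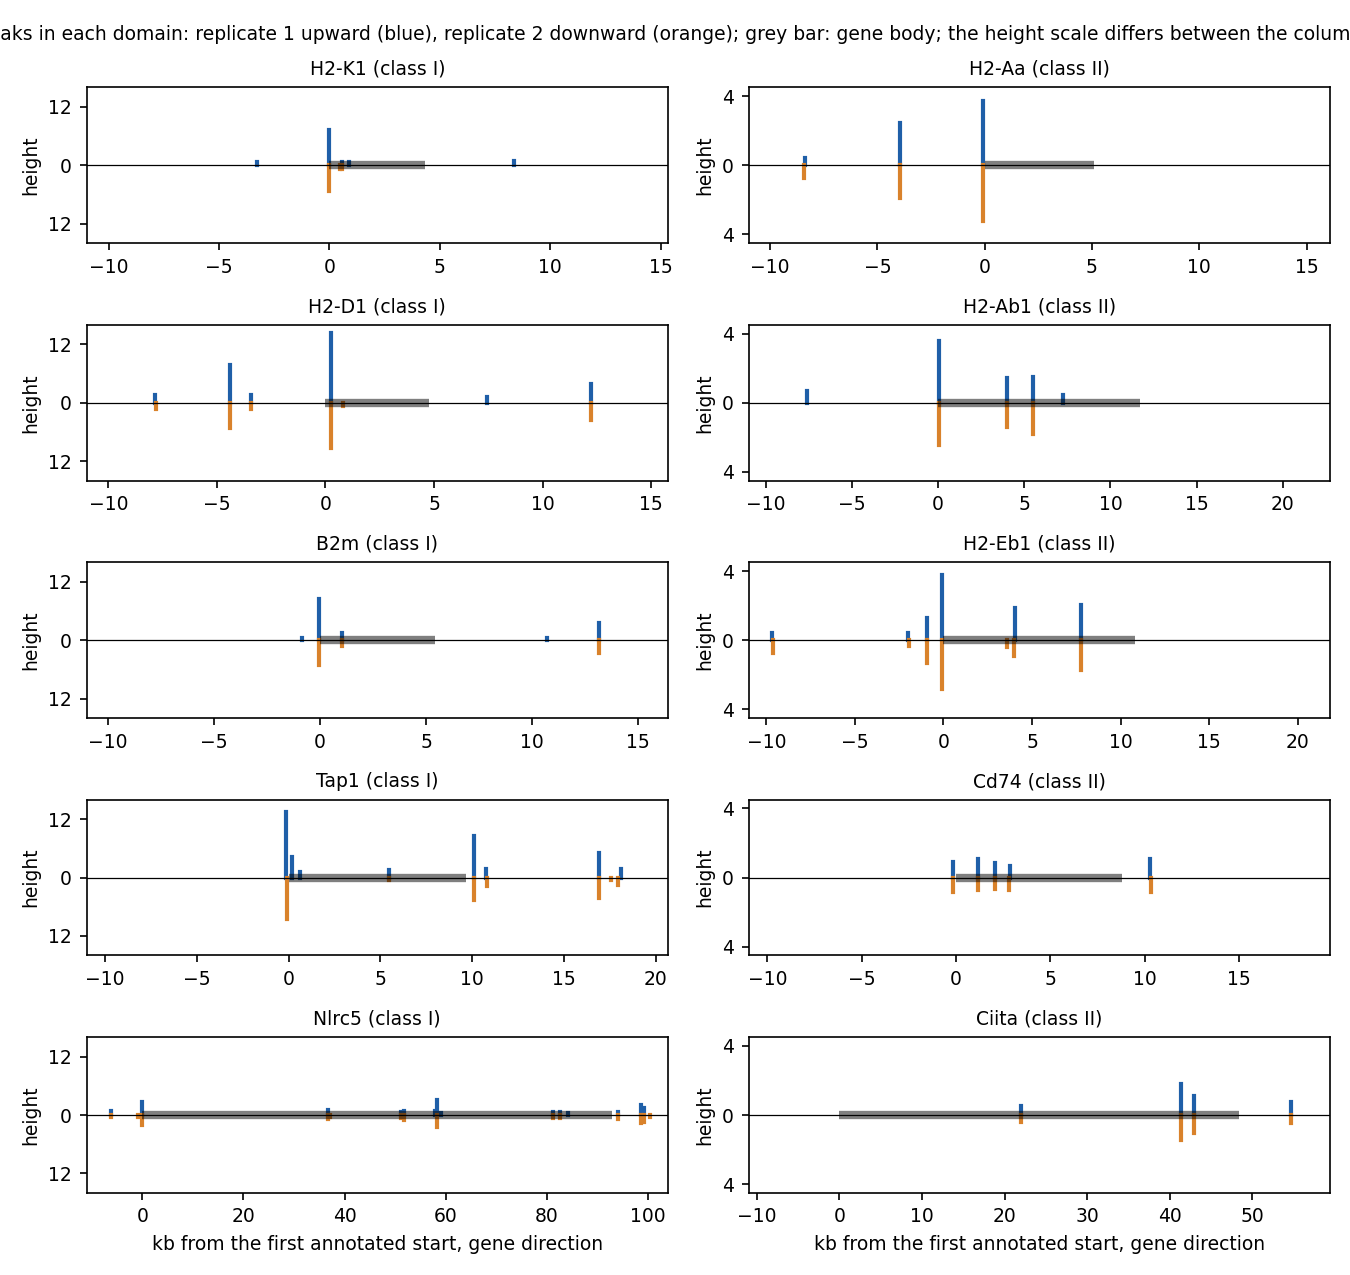
Peaks of replicate 1 (up) and replicate 2 (down) across each domain, by distance in kb from the first annotated start in the direction of the gene, with class I on the left and class II on the right. The vertical axes give height and differ in scale between the columns. H2-D1 has a high peak upstream of its start, and Ciita has peaks in its body and downstream but none at a start.

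Over the whole domains, 39 peaks of replicate 1 and 33 of replicate 2 belonged to class I, and 28 of replicate 1 overlapped a peak of replicate 2. Class II had 22 and 21, with 20 shared. Over the genome 71.5% of replicate 1 peaks overlapped one of replicate 2, against 71.8% for class I and 90.9% for class II. Domain peaks numbered 1.80 per 10 kb for class I and 1.25 for class II in replicate 1, against 0.667 for the domains of all protein-coding genes. The class I peaks included some at starts of other genes, such as Psmb8, Tap2 and Cpne2. These densities were not matched for gene length or for neighbouring genes.

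The other genes of the pathway were taken from 4 lists. Of 21 further class I processing genes, 21 were open, with median heights of 5.65 and 4.26 near those of all open genes. Calr, a chaperone of the heavy chain, had the highest mean, with 15.4 and 8.06, though Canx and Psmb9 (both 8.49) stood above it in replicate 2. Mr1, which presents microbial vitamin metabolites, was the lowest in both animals at 0.647 and 0.756. Of 10 further class II processing genes, 4 were open, below the 63.6% of all genes. H2-DMa (12.5 and 8.49) and the protease Lgmn (12.9 and 7.42) were the highest of them and changed order between the animals. The protease Ctsl came next in both, and H2-DMb1 was the lowest (1.18 and 1.29). The genes H2-DMb2, H2-Oa, H2-Ob, H2-Eb2, Ctss and March1 had no start open in both animals. All 7 genes for the factors on the X and Y boxes were open, with Nfya, a subunit of NF-Y, the highest (18.4 and 10.4) and Rfx5 the lowest (6.58 and 4.43). All 11 interferon signalling genes were open, with Ifngr1, a chain of the interferon gamma receptor, the highest (17.9 and 10.2) and Ifngr2, its partner, the lowest (1.69 and 1.59). Ciita was the 1 gene without an open start among the members and the factors of these promoter boxes.

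**Figure D4:**
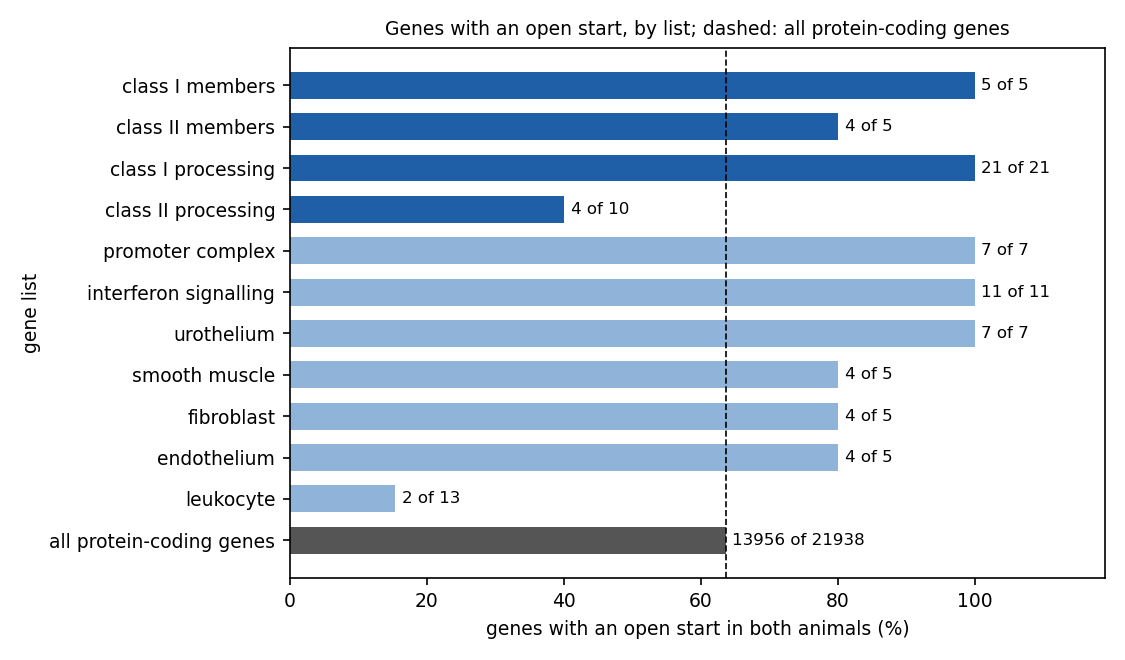
Share of genes with an open start in both animals (percent) for the members by class, the pathway lists and the marker lists, with all protein-coding genes at the bottom and as a dashed line. The class I processing list is open throughout, with 21 of 21, while the class II processing list has 4 of 10 and the leukocyte list 2 of 13.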

How the data were processed

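DNase-seq of bladder from 2 mice (1 group, 1 library each) was used. The authors deposited, per animal, 2 peak lists with a signal per peak, footprints at a p-value type threshold of 0.01, and bases with a false discovery rate up to 0.05, all on mm10 per the labels. Neither the aligner and callers nor the scaling is given in the sources used here. Depth is unknown: heights below 5 are whole multiples of 0.00789 and 0.00849, within 0.05 of a step. The larger list of each animal was used.

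Starts came from GENCODE M21 and sequences from RefSeq on GRCm38.p6. A peak within 250 bp opened a start. Peaks overlapped by at least 1 bp. Near copies were sought with blastn 2.17.0. The start calls and the search for single motifs were tested on made-up peaks and sequences and recovered what these held. The search for the motif pairs was not tested in this way. Software was Python 3.11.15, numpy 2.4.6, pysam 0.24.0, bedtools 2.31.1, samtools 1.23.1 and matplotlib 3.10.9. Members, lists and motifs were chosen with earlier results of these data known. All 10 members were named, with the highest and lowest gene of each list. Ifi30 is not annotated as protein-coding in GENCODE M21 and was left out.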

Additional observations from a re-analysis of the deposited data

How the results depend on the processing

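No paired analysis was possible because both animals belong to 1 group. Of the alternatives tried, none turned the higher class I height round. The class I minus class II difference was 1.43 with coding transcripts only, and 0.988 to 1.22 with either animal left out. Gene counts stayed at 5 for class I, apart from 4 with a 100 bp window, and at 4 for class II. The gene lost with the 100 bp window was H2-D1, whose start peak has its midpoint 271 bp from the annotated start. Counts of open starts were 12 (class I) and 8 (class II) with coding transcripts only. Dividing heights by the animal's median peak put the class II median at 3.94, in units of that median. Shared peaks numbered 14 and 13 within gene bodies, 66 and 45 with 50 kb flanks, and 12 for class II in the smaller list. With either animal left out, class I medians were 5.22 to 8.48 and class II medians 2.63 to 3.64. Class I peaks were then 33 to 39, class II peaks 21 to 22, and start footprints 29 to 30 and 14 to 22. The X2-Y pair, chosen after seeing the data, was in a start peak of 5 members and the planned pair in 2. Read depth being unknown, a start without a peak was not detectably open, not shown to be closed.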
